A study of Mus musculus with 20 samples.

Results

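The genes described here encode the enzymes that make, use and regenerate glutathione, together with the peroxiredoxins, the thioredoxin system, the superoxide dismutases and catalase. They were chosen by their symbol in the array annotation, from the Gsta, Gstm, Gstp, Gstt, Gsto, Gstk, Gstz, Gpx, Prdx and Sod families. To these were added Cat, Gclc, Gclm, Gsr, Gss, Txn1, Txnrd1, Txnrd2 and Txnrd3. This gave 43 genes of the 18193 measured, each read from its probe set of highest mean intensity. Prdx1 and Gsta1 lay only on probe sets that list several genes and were therefore left out.

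Transcript levels were measured on 20 Affymetrix arrays of cultured mouse cells in 6 groups. Germline stem cells (GSC, 3 arrays) were established from the testes of OG2 mice, which carry an Oct4-GFP transgene (B6;CBA-Tg[Pou5f1-EGFP]2Mnn/J), and were kept on inactivated embryonic fibroblasts in a serum-free medium with glial cell line-derived neurotrophic factor, epidermal and basic fibroblast growth factors, leukemia inhibitory factor and the thiol 2-mercaptoethanol. Germline pluripotent stem cells (gPS, 5 arrays) of the same OG2 background came from round GFP-positive colonies that formed within 3 to 4 weeks where about 1000 GSC per well had been left on fibroblasts, and were then expanded under embryonic stem cell conditions. The other groups were the RW4 line of embryonic stem cells (ESC, 3 arrays), ESC-like cells from testes of postnatal day 0 to 2 that another laboratory provided (ESC_like, 3 arrays), neural stem cells (NSC, 3 arrays) made from embryonic stem cells with an Olig2-GFP reporter and fibroblasts of C3H mouse embryos at E12.5 (MEF, 3 arrays). ESC and ESC_like cells were grown on fibroblast feeders with leukemia inhibitory factor. The age of the GSC donors and the number of gPS colonies behind the arrays are not given in the sources used here. Cell state and culture medium differed together between GSC and gPS cells and cannot be told apart. In the other comparisons the groups also differed in line, background or source laboratory. These cannot be told apart from cell state either.

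Glutathione is a small thiol peptide that cells keep mostly in its reduced form. Glutamate-cysteine ligase and glutathione synthetase make it, glutathione peroxidases spend it on hydrogen peroxide and lipid peroxides, glutathione S-transferases couple it to electrophiles, and glutathione reductase restores it with NADPH. Peroxiredoxins draw instead on thioredoxin, superoxide dismutases produce hydrogen peroxide from superoxide, and catalase breaks hydrogen peroxide down. Many of these genes are known targets of the transcription factor Nrf2, which acts through antioxidant response elements.

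Values are log2 intensities, so 1 unit is a 2-fold difference, and they are compared only between groups for the same gene. Across all probe sets and arrays they ran from 2.04 to 14.71 with a median of 4.98. A level near or below that median may be background, which makes fold changes from it unreliable. List means of marker genes matched the labels. The mean of 6 germ line markers was 9.98 to 10.02 in GSC arrays. That of 6 pluripotency markers was 11.31 to 11.97 in gPS, ESC and ESC_like arrays and 6.86 to 6.96 in GSC arrays. That of 5 measured neural markers was 9.17 to 9.34 in NSC arrays. Single markers differed: Sox1 was only 4.28 in NSC. Pou5f1 was 9.29 and Dppa5a 9.52 in GSC, and the germ line markers Ddx4 and Gfra1 were 7.17 and 7.00 in MEF. Ddx4 was also 7.23 in gPS cells. In GSC arrays the mean of 6 visceral endoderm markers was 5.82 to 5.90, with Afp at 8.54 and Foxa2 at 6.53 but Gata4 at 4.49. The Sertoli and Leydig marker mean was 4.95 to 5.15 there, with Wt1 at 6.42, and the haploid germ cell marker mean 4.18 to 4.43. The mean of 8 fibroblast markers was 10.71 to 10.84 in MEF arrays and also 7.10 to 7.32 in GSC, 6.57 to 8.18 in gPS, 8.26 to 8.59 in ESC_like, 5.80 to 5.95 in NSC and 4.48 to 4.70 in ESC arrays. The mean of 6 macrophage markers was 6.71 to 6.75 in GSC, 5.18 to 6.32 in gPS, 5.29 to 5.59 in ESC, 6.82 to 6.95 in ESC_like, 4.77 to 5.09 in NSC and 6.52 to 6.75 in MEF arrays. Its members differed: Lyz2 stood at 10.96 in GSC, 9.95 in ESC_like, 8.33 in MEF and 4.80 in ESC, whereas Cd68 stood at 6.77, 7.78, 6.11 and 7.92 in the same groups. The gPS replicate 1 correlated least with its group, at a mean r of 0.979 over all probe sets.

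Of the 43 genes, 34 reached a mean above 6 in at least 1 group and 9 did not. The difference between the highest and the lowest group mean had a median of 1.75 over the 43 genes and 1.04 over all genes. Among genes with a mean above 6 in some group, the corresponding medians were 1.89 and 1.57. Among the 34 genes above 6, GSC held the lowest mean of 13 and the highest of 8, gPS cells the lowest of 1 and the highest of 7, NSC the lowest of 9 and the highest of 5, and MEF the lowest of 6 and the highest of 10. Of all 11217 genes above 6, GSC held the lowest mean of 2387 and the highest of 3234, gPS cells of 939 and 1343, NSC of 2399 and 2169, and MEF of 2726 and 2130.

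**Figure D1:**
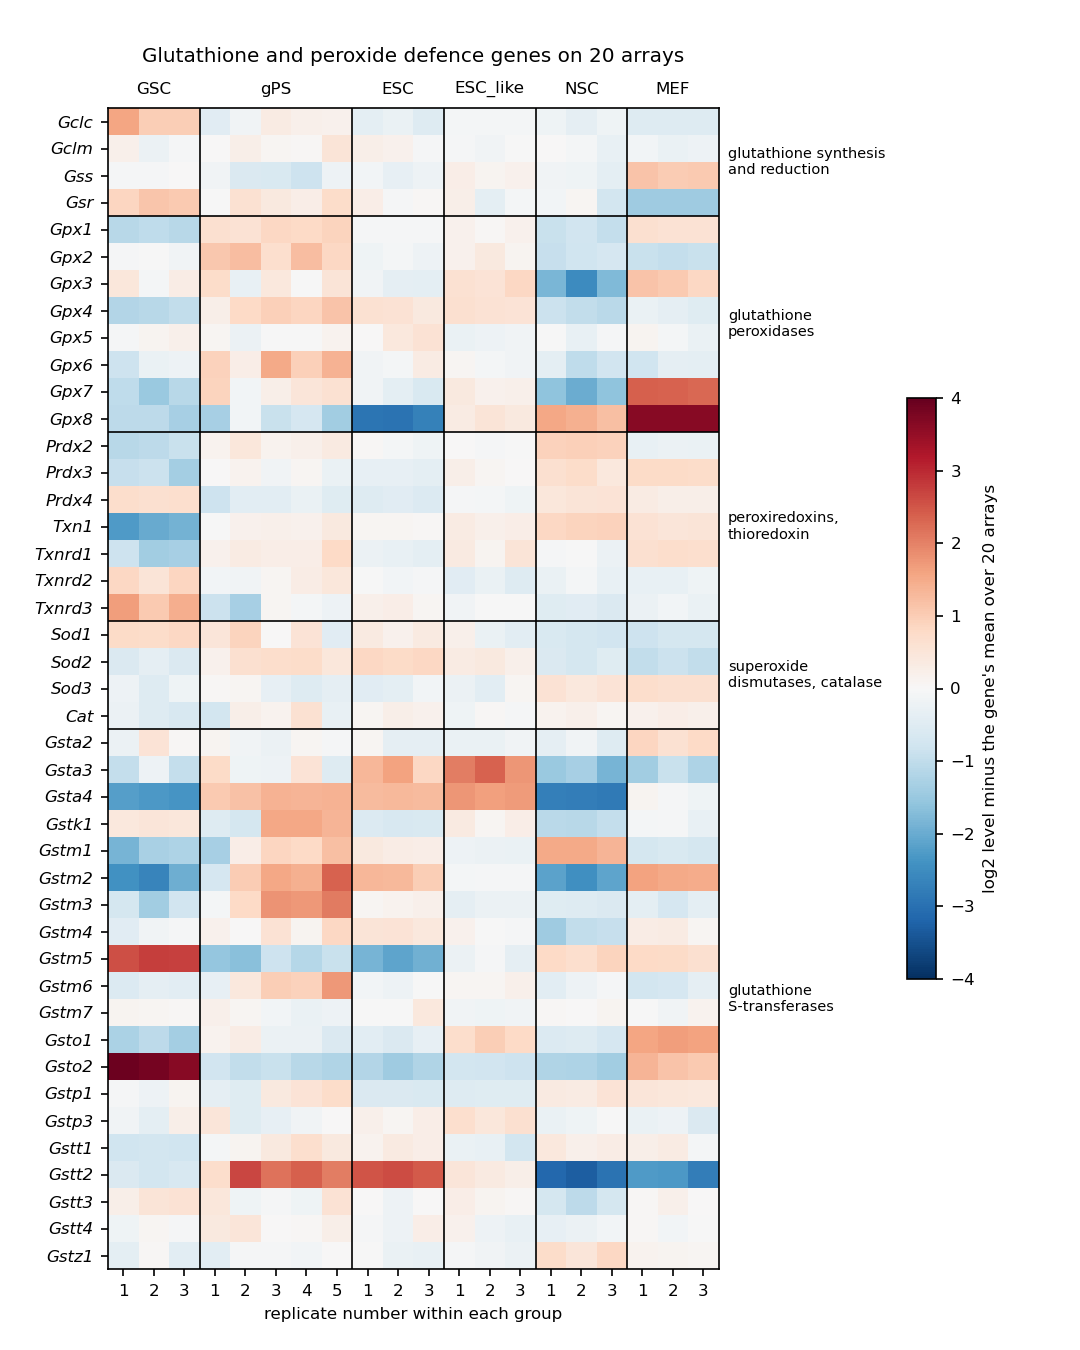
Log2 level of each of the 43 genes (rows, by role) on each of the 20 arrays (columns, by group and replicate number), drawn as the difference from the gene's mean over all arrays, with red for higher and blue for lower. Gsto2 and Gstm5 are highest in the 3 GSC arrays, Gpx8 and Gpx7 in the 3 MEF arrays, and Gstt2 in the ESC arrays and in 4 of the 5 gPS arrays.

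A gene was called in a comparison when its adjusted p was under 0.05 (limma, Benjamini-Hochberg over all 18193 genes) and its difference at least 2-fold. "Rose" and "fell" below are used only of called genes. RNA came from whole cultures, so fewer cells of a type and less RNA per cell cannot be told apart.

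The first comparison asked how the defence genes differed between gPS cells and the GSC they came from. Of the called genes, 5 of the 8 glutathione peroxidases, thioredoxin and 8 of the 20 glutathione S-transferases were higher in gPS cells, while Gsto2, Gstm5, Txnrd3, Prdx4 and Gclc were lower. In all, 18 of the 43 genes rose and 5 fell, or 53.5% of them, where 20.0% of all genes were called. Among genes with a mean above 6 in some group the shares were 64.7% of 34 and 30.3% of 11217. The median difference was 0.28 over the 43 genes and 0.02 over all genes, and the median size of the difference regardless of sign was 1.04 and 0.34.

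Of the 4 genes of glutathione synthesis and recycling, 0 rose by limma from GSC to gPS cells, 1 fell and 3 were not called (0 higher and 3 lower at an unadjusted p under 0.05). A call of 1 in 4 is near the 20.0% of all genes called. Gclc, the catalytic subunit of glutamate-cysteine ligase, stood at 10.83, 10.24 and 10.24 in the GSC arrays and at 8.80, 9.11, 9.60, 9.48 and 9.44 in the gPS arrays. All 3 GSC values lay above all 5 gPS values, and the ESC (8.76 to 8.99), ESC_like (9.17 on each array), NSC (8.91 to 9.08) and MEF arrays (8.73 to 8.75) lay below GSC as well. Gclc fell by 1.15 ± 0.15 (log2, SE; adjusted p = 1.89e-06, limma) from GSC to gPS cells and was 1.57 ± 0.17 (SE; adjusted p = 1.2e-07) higher in GSC than in ESC. Without GSC replicate 1, the highest array, the first of these differences was -0.96 and no longer 2-fold, and it was -0.99 without probe sets of shared probes and -0.93 with array weights. A second Gclc probe set had the same highest group, with a mean of 10.27 in GSC and 9.27 in gPS cells.

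Gclm, the modifier subunit that raises the activity of Gclc, was level across the groups: 9.19, 8.75 and 8.95 in GSC, 8.998, 9.23, 9.06, 9.04 and 9.49 in gPS, 8.93 to 9.21 in ESC, and 8.68 to 8.99 in the arrays of the other groups. These arrays overlapped, and Gclm was called in no comparison. The gPS minus GSC difference was 0.20 (95% interval -0.06 to 0.46). Its other probe set disagreed, with means of 5.26 in GSC, 7.16 in gPS, 7.68 in ESC and 8.03 in NSC, so the 2 Gclm probe sets do not give 1 pattern.

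Gss, the synthetase that adds glycine in the last step, was highest in MEF, at 8.58, 8.47 and 8.50, against 7.33, 7.12 and 7.25 in ESC and 7.41, 7.42 and 7.47 in GSC. In gPS cells it measured 7.32, 6.88, 6.85, 6.62 and 7.24, in ESC_like cells 7.55 to 7.71 and in NSC 7.07 to 7.32. No array of another group reached the MEF values, and the rise from ESC to MEF was 1.29 ± 0.14 (SE; adjusted p = 1.35e-07, limma). Gsr, glutathione reductase, ran the other way: 9.72, 9.96 and 9.90 in GSC, 8.85, 9.47, 9.24, 9.13 and 9.60 in gPS, 9.12, 8.81 and 8.91 in ESC, 9.10, 8.48 and 8.78 in ESC_like, 8.74, 8.94 and 8.13 in NSC, and 7.45, 7.44 and 7.45 in MEF. GSC lay above every other group and MEF below every other group. Gsr fell by 1.502 ± 0.20 (log2, SE; adjusted p = 1.34e-06) from ESC to MEF, while its gPS minus GSC difference of -0.60 was under 2-fold.

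The glutathione peroxidases use glutathione to reduce peroxides, and 5 of the 8 rose from GSC to gPS cells, 0 fell by limma (also 0 at an unadjusted p under 0.05) and 3 were not called. The share called was 20.0% over all genes and 30.3% over all genes above 6. Gpx1, the abundant peroxidase of the cytosol and mitochondria, measured 10.78, 10.85 and 10.78 in GSC and 12.53, 12.47, 12.70, 12.69 and 12.78 in gPS. ESC arrays lay between them, at 11.84, 11.85 and 11.83, as did ESC_like at 12.05, 11.94 and 12.05, and NSC at 10.98, 11.10 and 10.93 lay just above GSC. Neither GSC nor ESC overlapped with gPS cells, where Gpx1 was 3.55-fold above GSC (log2 1.83 ± 0.09, SE; adjusted p = 2.87e-13, limma) and 0.79 log2 units above ESC (adjusted p = 1.02e-06), the latter under 2-fold. MEF arrays, at 12.53, 12.47 and 12.45, reached the gPS level.

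Gpx4 reduces lipid peroxides within membranes and is the peroxidase that holds off ferroptosis. It measured 10.53, 10.61 and 10.73 in GSC, 11.95, 12.495, 12.65, 12.55 and 12.85 in gPS, 12.32, 12.27 and 12.09 in ESC, and 12.36, 12.30 and 12.25 in ESC_like cells. NSC (10.83, 10.73 and 10.64) were as low as GSC, and MEF (11.43, 11.34 and 11.21) lay between. Gpx4 rose 3.68-fold from GSC to gPS cells (1.88 ± 0.14, SE; adjusted p = 3.8e-10, limma), and gPS and ESC arrays overlapped, with a difference of 0.28 (95% interval -0.02 to 0.57).

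The other peroxidases were measured at lower intensities. Gpx2, known from the gut epithelium, had a mean of 6.92 ± 0.25 (SD, n = 5) in gPS cells against 5.83 ± 0.07 (SD, n = 3) in GSC and 5.75 ± 0.06 (SD, n = 3) in ESC. It was called higher in gPS cells against both. Gpx6 had a mean of 6.14 in gPS cells and at most 5.16 in the other groups, and Gpx5 stayed between 4.31 and 4.85 in every group mean, at background.

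Gpx7 and Gpx8, peroxidases of the endoplasmic reticulum, and Gpx3, the secreted peroxidase, followed another order. Gpx8 measured 11.39, 11.38 and 11.37 in MEF, 9.28, 9.16 and 8.95 in NSC, 8.05, 8.23 and 8.13 in ESC_like, 6.68, 6.70 and 6.41 in GSC and 4.81, 4.78 and 5.04 in ESC. In gPS cells it stood at 6.39, 7.62, 6.84, 7.06 and 6.34, overlapping GSC but lying above every ESC array. It had the widest range of group means of the 43 genes, 90.6-fold between MEF and ESC, with the ESC level at background.

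Gpx7 was likewise highest in MEF, at 9.02, 8.99 and 8.93, and lowest in NSC, at 5.02, 4.63 and 5.01. The gPS arrays, at 7.51, 6.52, 6.85, 7.10 and 7.24, lay above the GSC arrays at 5.60, 5.13 and 5.50 and the ESC arrays at 6.48, 6.22 and 6.03. ESC_like arrays measured 7.00, 6.79 and 6.83. Gpx3 stood at 8.57, 8.48 and 8.25 in MEF and 5.59, 4.91 and 5.68 in NSC. It measured 7.87, 7.36 and 7.73 in GSC, 8.16, 7.14, 7.86, 7.42 and 7.94 in gPS, 7.28, 7.06 and 7.04 in ESC and 8.04, 7.99 and 8.27 in ESC_like cells. GSC and gPS overlapped for Gpx3, with a difference of 0.05 (95% interval -0.37 to 0.47).

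The fibroblast markers moved with part of these values. Outside NSC, both Gpx8 and the marker mean were highest in MEF, next in ESC_like and lowest in ESC, with GSC and gPS arrays overlapping between. Among the gPS arrays, replicate 2 had both the highest marker mean, 8.18 against 6.57 to 6.93 in the other 4, and the highest Gpx8, 7.62. In the same array Gpx7, at 6.52, and Gpx3, at 7.14, were the lowest of the 5 gPS values, and Gsto1, at 10.54, the highest. NSC arrays had a Gpx8 level of 8.95 to 9.28 with a marker mean of only 5.80 to 5.95. All 8 markers were measured, 7 of them had a mean above 6 in GSC, gPS and ESC_like cells and 0 in ESC. The part of feeder fibroblasts in the levels of Gpx8, Gpx7, Gpx3 and Gsto1 was not tested.

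**Figure D2:**
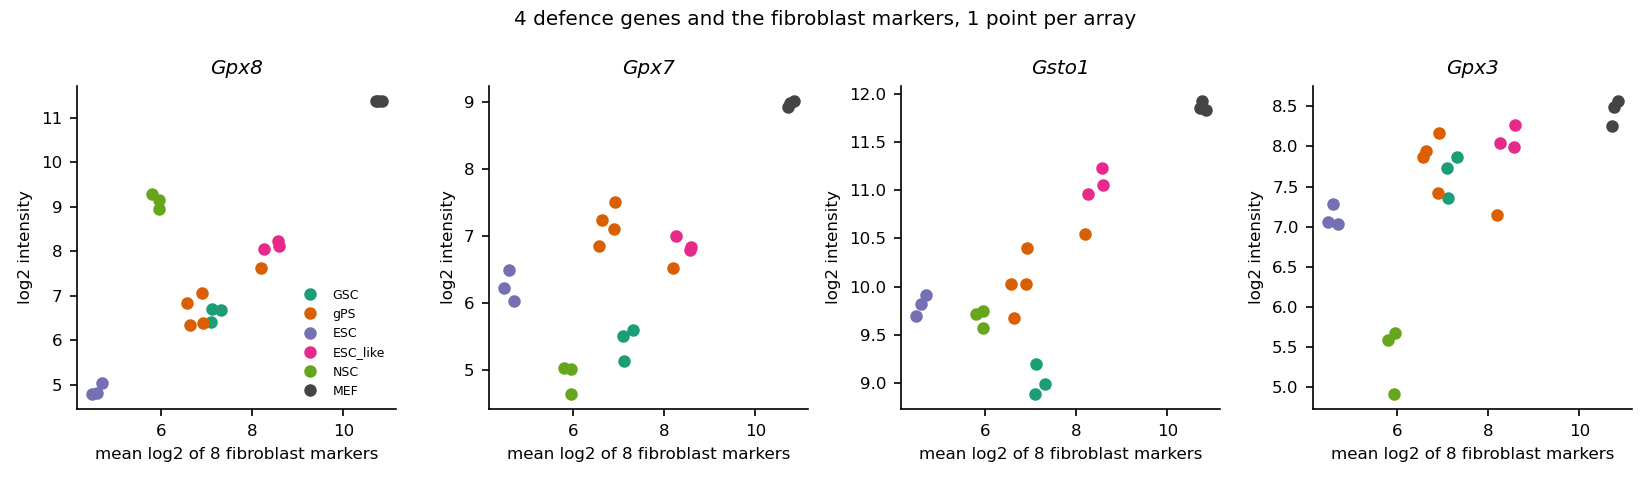
Log2 level of Gpx8, Gpx7, Gsto1 and Gpx3 (vertical axes) against the mean log2 level of 8 fibroblast markers (horizontal axes), with 1 point per array coloured by group. The 3 MEF arrays are highest on both axes in the Gpx8, Gpx7 and Gsto1 panels, and the NSC arrays have high Gpx8 with a marker mean under 6.

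The peroxiredoxins reduce peroxides with electrons from thioredoxin. Prdx2, of the cytosol, had means of 10.57 ± 0.11 (SD, n = 3) in GSC, 11.85 ± 0.14 (SD, n = 5) in gPS, 11.52 in ESC and 12.52 in NSC, and Prdx3, of the mitochondria, 8.22, 9.24, 8.91 and 9.86 in the same groups. Both were lowest in GSC. Prdx4, which works in the endoplasmic reticulum, was instead highest in GSC: 11.01, 10.95 and 10.99, against 9.48, 9.88, 9.90, 10.04 and 9.83 in gPS and 9.80, 9.86 and 9.78 in ESC. The GSC arrays lay above all gPS and ESC arrays, and Prdx4 fell by 1.16 ± 0.10 (SE; adjusted p = 4.25e-09, limma) from GSC to gPS cells, which differed from ESC by 0.01 (95% interval -0.20 to 0.22).

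Thioredoxin itself, Txn1, was lowest in GSC, at 10.25, 10.51 and 10.64. It measured 12.52, 12.69, 12.73, 12.70 and 12.90 in gPS, 12.59, 12.59 and 12.58 in ESC, 12.84, 12.74 and 12.78 in ESC_like, 13.36, 13.42 and 13.44 in NSC and 13.11, 13.02 and 13.05 in MEF. No array of another group came within 1 unit of the GSC arrays. The rise from GSC to gPS cells was 4.72-fold (2.24 ± 0.10, SE; adjusted p = 7.09e-14, limma), and gPS cells differed from ESC by 0.12 (95% interval -0.08 to 0.32).

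The thioredoxin reductases divided. Txnrd1, the cytosolic enzyme, measured 9.71, 9.15 and 9.21 in GSC, 10.73, 10.89, 10.82, 10.80 and 11.34 in gPS, 10.31, 10.25 and 10.14 in ESC, 10.90, 10.64 and 11.05 in ESC_like, 10.48, 10.54 and 10.30 in NSC, and 11.17, 11.25 and 11.20 in MEF. GSC lay below every other group, and gPS lay above ESC. Txnrd3, the thioredoxin-glutathione reductase known for its high level in testis, measured 9.17, 8.56 and 8.97 in GSC and 6.65, 6.19, 7.59, 7.42 and 7.31 in gPS, with no overlap. It fell by 1.87 ± 0.22 (SE; adjusted p = 3.32e-07, limma), and the 3 Txnrd3 probe sets all had their highest mean in GSC. Txnrd2, of the mitochondria, had its highest mean in GSC too, 7.42 against 6.26 to 6.80 elsewhere, and was not called in any comparison.

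Of the 3 superoxide dismutases and catalase, 1 rose from GSC to gPS cells and 3 were not called, near the 20.0% of all genes called. Sod2, of the mitochondria, measured 10.57, 10.80 and 10.58 in GSC, 11.32, 11.78, 11.85, 11.88 and 11.62 in gPS, 11.98, 11.92 and 11.99 in ESC, 11.48, 11.54 and 11.36 in ESC_like, 10.56, 10.45 and 10.67 in NSC and 10.17, 10.28 and 10.17 in MEF. The pluripotent groups lay above GSC, NSC and MEF without overlap. Sod2 was 1.32 ± 0.13 (SE; adjusted p = 1.99e-08, limma) lower in GSC than in ESC.

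Sod1, of the cytosol, measured 12.52, 12.502 and 12.60 in GSC, 12.26, 12.65, 11.78, 12.31 and 11.32 in gPS, 12.14, 11.95 and 12.14 in ESC and 11.98, 11.51 and 11.36 in ESC_like cells. Its gPS arrays spread over more than 1 unit and overlapped both GSC and ESC. NSC, at 11.16, 11.08 and 11.00, and MEF, at 10.93, 11.05 and 11.07, lay below the pluripotent groups. The 1.06 ± 0.23 (SE; adjusted p = 0.000447, limma) by which Sod1 was lower in MEF than in ESC became 0.69 for the mean of its 5 probe sets and 0.79 without probe sets of shared probes. Of the 5, 1 had its highest mean in NSC. Cat, catalase, measured 9.50, 9.21 and 9.11 in GSC, 9.01, 9.97, 9.88, 10.33 and 9.45 in gPS, 9.81, 9.98 and 9.91 in ESC, 9.55, 9.77 and 9.69 in ESC_like, 9.88, 9.95 and 9.81 in NSC and 9.91, 10.01 and 9.95 in MEF. The gPS arrays overlapped every other group. Cat was called in no comparison on this probe set, whose suffix marks probes shared by transcripts of the same gene. A second Cat probe set, without that suffix, had means of 7.93 in GSC, 8.79 in gPS and 8.88 in ESC_like. It had 9.12 in ESC, 9.10 in NSC and 8.92 in MEF, so catalase was not level on both probe sets. Sod3, the extracellular enzyme, stayed at or near background, with group means from 4.52 to 5.49.

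**Figure D3:**
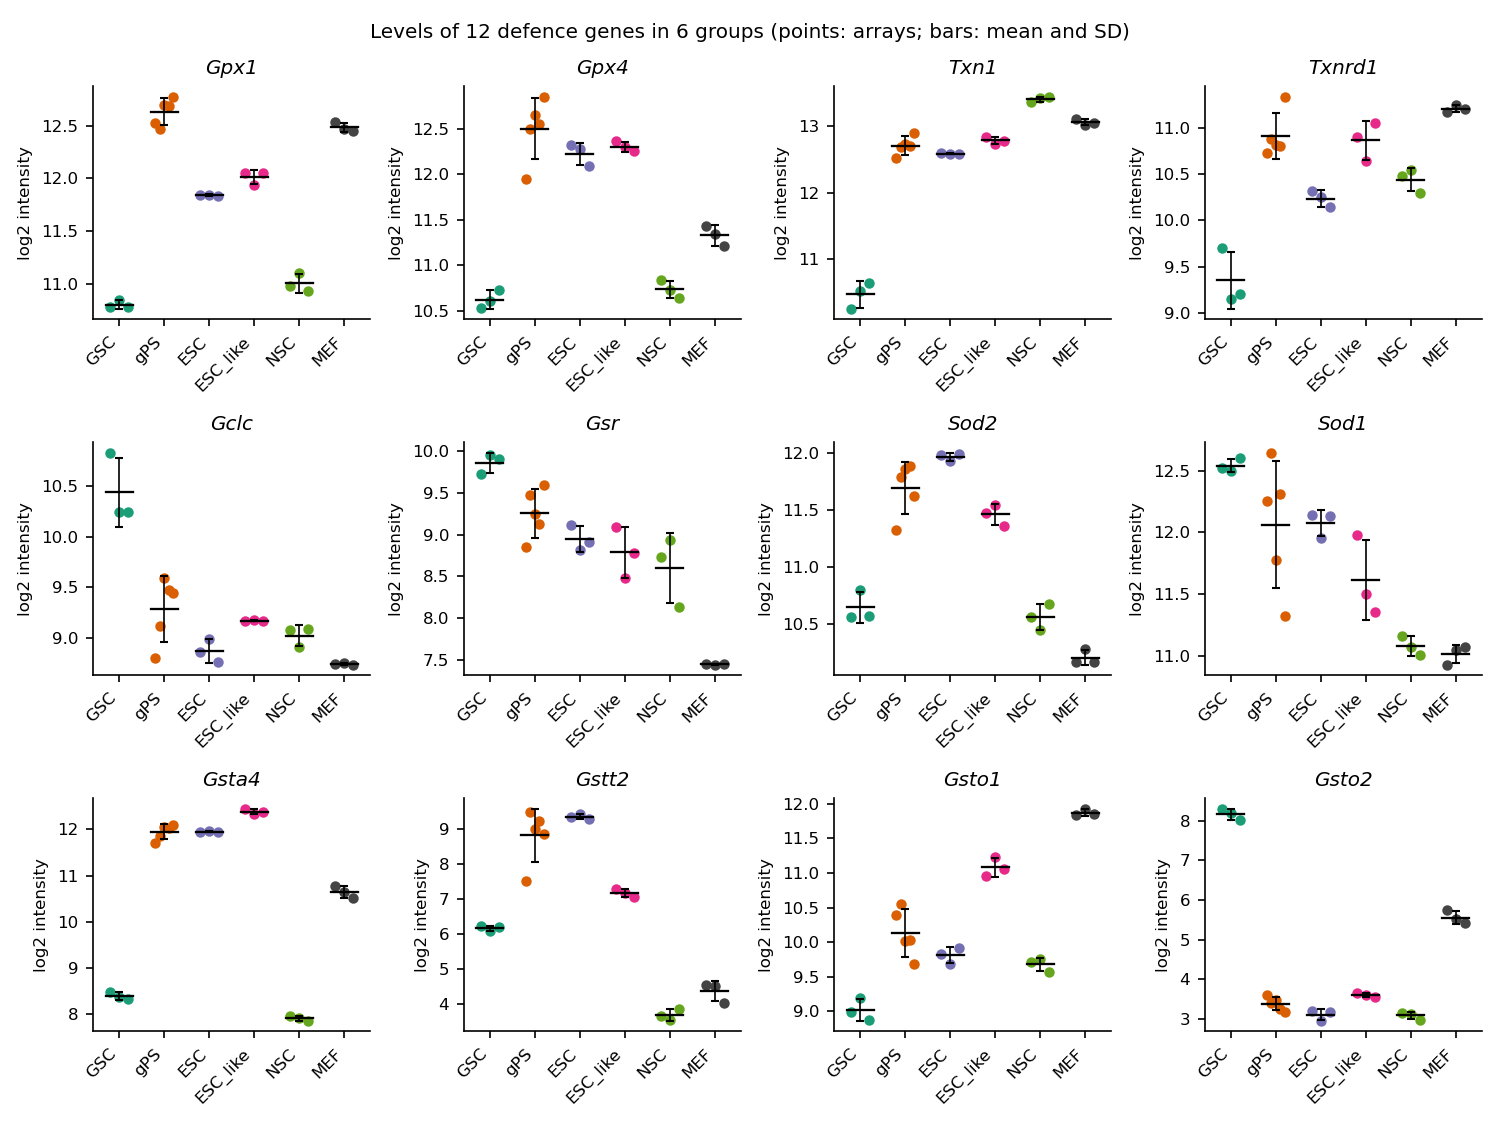
Log2 intensity of 12 defence genes in the 6 groups, with 1 point per array, a horizontal bar at the group mean and an error bar of 1 SD (n = 5 for gPS, n = 3 for the others). Gpx1, Txn1, Txnrd1 and Gsto1 are lowest in GSC, Gclc, Gsr and Gsto2 are highest there, and the vertical axes differ between panels and do not start at 0.

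The glutathione S-transferases make up 20 of the 43 genes. From GSC to gPS cells 8 rose, 2 fell and 10 were not called. Of all genes 20.0% were called in this comparison, and 30.3% of all genes above 6. Several lie side by side in the genome: Gstm5, Gstm7, Gstm6, Gstm3, Gstm2, Gstm1 and Gstm4 follow each other in that order, as do Gstt3, Gstt1, Gstt4 and Gstt2, and Gsto1 and Gsto2 are neighbours. Transferases of 1 class are close in sequence, and a probe set may also bind a paralog. Gstm1 and Gsto1 were read from probe sets with an _x suffix and Gstm3 from one with an _s suffix. These suffixes mark probes that may bind transcripts of other genes, and the values are uncertain in that respect. Gsta2, Gstm6, Gsto2, Gstp1 and Gstz1 were read from probe sets with an _a suffix, which marks probes shared by transcripts of the same gene.

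The neighbouring omega class genes differed in GSC. Gsto2, an omega class transferase with dehydroascorbate reductase activity, measured 8.29, 8.20 and 8.02 in GSC, 3.60, 3.40, 3.47, 3.26 and 3.18 in gPS, 3.20, 2.95 and 3.18 in ESC, 3.65, 3.61 and 3.55 in ESC_like, 3.16, 3.13 and 2.98 in NSC, and 5.75, 5.52 and 5.42 in MEF. GSC stood alone above every other group, and all but GSC and MEF were at background. Gsto2 fell 27.6-fold from GSC to gPS cells (4.79 ± 0.11 on the log2 scale, SE; adjusted p = 2.24e-18, limma).

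Gsto1, the more widely expressed omega class gene next to it, was lowest in GSC: 8.99, 9.19 and 8.88, against 10.40, 10.54, 10.02, 10.03 and 9.68 in gPS and 9.82, 9.69 and 9.92 in ESC. It measured 10.96, 11.23 and 11.06 in ESC_like, 9.71, 9.75 and 9.57 in NSC and 11.84, 11.93 and 11.85 in MEF. Its GSC arrays lay below all others. A second Gsto1 probe set also had its highest mean in MEF, 12.25, but placed GSC (9.18), ESC (9.04) and NSC (9.04) close together.

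The upstream sequences of this neighbouring pair are shown because, on the probe sets used, Gsto2 was highest and Gsto1 lowest in GSC. For Gsto1 this did not hold on its second probe set. They are from RefSeq, GRCm38.p6, 5′ to 3′ on the gene's strand, with CG dinucleotides in capitals. The Gsto1 sequence is the 250 bases before the transcription start (chr19:47854723-47854972, plus strand). The Gsto2 sequence covers bases 250 to 108 before its start (chr19:47865295-47865437, plus strand), since the rest lies within the gene as annotated.
Gsto1: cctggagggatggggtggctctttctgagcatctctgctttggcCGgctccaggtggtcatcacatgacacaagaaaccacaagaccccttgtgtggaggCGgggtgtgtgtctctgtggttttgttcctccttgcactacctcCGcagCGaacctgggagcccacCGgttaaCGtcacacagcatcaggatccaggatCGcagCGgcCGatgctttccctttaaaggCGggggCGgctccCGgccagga
Gsto2: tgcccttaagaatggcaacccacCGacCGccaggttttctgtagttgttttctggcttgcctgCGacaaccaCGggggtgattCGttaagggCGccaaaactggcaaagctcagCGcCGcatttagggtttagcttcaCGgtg
Gsto1 held 12 CG dinucleotides in its 250 bases and Gsto2 held 16, of which 9 are in the stretch printed. RefSeq lists a second Gsto2 start, whose 250 upstream bases lie within the gene and held 22. The median over the 250-base upstream regions of 32851 promoters was 6. Over the 51 promoters listed for the defence genes it was 10.

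In the mu class cluster, Gstm5, known as a testis and brain transferase, measured 11.05, 11.24 and 11.22 in GSC, 6.93, 6.81, 7.65, 7.34 and 7.57 in gPS, 6.60, 6.37 and 6.56 in ESC, 8.25, 8.44 and 8.12 in ESC_like, 9.28, 9.14 and 9.37 in NSC and 9.27, 9.23 and 9.13 in MEF. GSC lay above, and ESC below, every other group. Gstm5 fell by 3.91 ± 0.16 (SE; adjusted p = 1.7e-14, limma) from GSC to gPS cells. Gstm2, a transferase of the same class, was instead low in GSC and high in MEF, ESC and gPS cells: 3.56, 3.31 and 4.02 in GSC, 5.28, 6.97, 7.51, 7.37 and 8.32 in gPS, 7.31, 7.27 and 6.95 in ESC, 5.89, 5.92 and 5.91 in ESC_like, 3.83, 3.52 and 3.85 in NSC and 7.58, 7.48 and 7.46 in MEF. GSC and NSC were at background, and the gPS arrays spread over 3 units above them. Gstm2 rose by 3.46 ± 0.39 (SE; adjusted p = 1.69e-07) from GSC to gPS cells.

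The 250 bases before the starts of Gstm5 (chr3:107895604-107895853, plus strand) and Gstm2 (chr3:107986421-107986670, minus strand) are given because Gstm5 was highest in GSC while Gstm2 was at background there and in NSC, with the same source and capitals.
Gstm5: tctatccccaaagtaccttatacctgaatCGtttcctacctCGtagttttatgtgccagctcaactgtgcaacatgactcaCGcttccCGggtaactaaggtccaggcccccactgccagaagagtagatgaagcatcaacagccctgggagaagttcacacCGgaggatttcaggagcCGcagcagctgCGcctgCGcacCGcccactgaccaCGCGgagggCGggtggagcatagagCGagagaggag
Gstm2: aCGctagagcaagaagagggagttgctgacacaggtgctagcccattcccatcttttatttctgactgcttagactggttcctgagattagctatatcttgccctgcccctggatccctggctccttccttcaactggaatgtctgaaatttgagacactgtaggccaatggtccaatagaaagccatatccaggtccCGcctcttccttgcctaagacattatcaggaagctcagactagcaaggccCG
Gstm5 held 13 CG dinucleotides and Gstm2 held 3, on either side of the median of all promoters, whereas Gsto1 and Gsto2 were both above it.

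Other mu class genes, Gstm1, Gstm3 and Gstm6, also rose from GSC to gPS cells. Gstm1 measured 6.74, 7.28 and 7.34 in GSC, 7.26, 8.86, 9.45, 9.37 and 9.80 in gPS, 8.97, 8.90 and 8.87 in ESC, 8.38, 8.37 and 8.32 in ESC_like, 10.10, 10.09 and 9.96 in NSC and 7.90, 7.97 and 7.87 in MEF. Gstm3 measured 5.95, 5.27 and 5.89 in GSC and 6.57, 7.43, 8.45, 8.37 and 8.72 in gPS, with 6.73, 6.78 and 6.84 in ESC, 6.30 to 6.41 in ESC_like, 6.07 to 6.17 in NSC and 5.99 to 6.27 in MEF. Both rose, Gstm1 by 1.83 ± 0.35 (SE; adjusted p = 0.000132, limma) although gPS replicate 1 overlapped GSC, and Gstm3 by 2.21 ± 0.32 (SE; adjusted p = 4.78e-06) with no overlap. Gstm6 had means of 4.20 in GSC and 5.39 in gPS cells, both near background, so that the size of its rise is uncertain. Gstm4 had 5.19 and 5.76 and was not called between them, and Gstm7 stayed between 5.33 and 5.61 in every group mean on the probe set used, while its other probe set reached 6.02 in NSC.

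Among the alpha class, Gsta4, which conjugates the lipid peroxidation product 4-hydroxynonenal, measured 8.48, 8.37 and 8.33 in GSC, 11.71, 11.85, 12.06, 12.02 and 12.08 in gPS, 11.95, 11.96 and 11.93 in ESC, 12.45, 12.33 and 12.37 in ESC_like, 7.96, 7.91 and 7.86 in NSC and 10.77, 10.64 and 10.51 in MEF. The 3 pluripotent groups stood above MEF, and GSC and NSC were far below. Gsta4 rose 11.7-fold from GSC to gPS cells (3.55 ± 0.10, SE; adjusted p = 3.87e-17, limma), and gPS cells and ESC had the same mean, 11.95 (difference 95% interval -0.20 to 0.20). Gsta3 measured 6.55, 6.83 and 6.05 in ESC, 7.27, 7.61 and 6.99 in ESC_like and 5.99, 5.06, 5.04, 5.78 and 4.72 in gPS. The gPS arrays lay below both, and GSC (4.29, 5.02 and 4.30), NSC (3.37 to 3.92) and MEF (3.85 to 4.35) were near background. Gsta2 stayed at background, with no group mean above 4.21.

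In the theta class, Gstt2 measured 6.24, 6.10 and 6.20 in GSC, 7.54, 9.50, 9.002, 9.23 and 8.88 in gPS, 9.36, 9.43 and 9.28 in ESC, 7.30, 7.19 and 7.08 in ESC_like, 3.68, 3.54 and 3.87 in NSC and 4.57, 4.53 and 4.05 in MEF. It was at background in the somatic groups and highest in ESC and gPS cells, with ESC_like cells and gPS replicate 1 between those and GSC. Gstt2 rose by 2.65 ± 0.27 (SE; adjusted p = 4.67e-08, limma) from GSC to gPS cells. Gstt1 had means of 5.30 in GSC and 6.36 in gPS cells, and Gstt3 and Gstt4 had no group mean above 5.48. Of the remaining transferases, Gstp1, the pi class enzyme, was between 10.48 and 11.52 in every group mean, Gstz1, which acts in tyrosine breakdown, was highest in NSC at 7.68, and Gstp3 stayed at background or near it, from 4.28 to 5.21.

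gPS cells and ESC were compared to see how closely the derived cells matched an embryonic line. Of the 43 genes, 4 rose, 1 fell and 38 were not called, or 11.6% called where 4.49% of all genes were. Among genes with a mean above 6 in some group the shares were 14.7% and 6.7%. Gpx8 was 1.97 ± 0.20 (SE; adjusted p = 2.77e-07, limma) and Gpx2 1.17 ± 0.12 (SE; adjusted p = 3.49e-07) higher in gPS cells, with no overlap for either. Gstk1, the kappa class transferase of mitochondria and peroxisomes, was 1.25 ± 0.39 (SE; adjusted p = 0.021) and Gstm3 1.12 ± 0.32 (SE; adjusted p = 0.012) higher, but some gPS arrays overlapped with ESC for each. Gsta3 fell by 1.16 ± 0.26 (SE; adjusted p = 0.00216). The smallest differences were those of Gsta4 (0.00), Sod1 (-0.01), Prdx4 (0.01) and Gstm1 (0.03), with 95% intervals of -0.20 to 0.20, -0.43 to 0.41, -0.20 to 0.22 and -0.69 to 0.75.

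This count rested on single arrays: it dropped from 5 to 3 without gPS replicate 3, without gPS replicate 5 or without ESC replicate 2. Gstk1 was not called without gPS replicate 3 (adjusted p = 0.0523, limma), 4 (0.0538) or 5 (0.0525) or without ESC replicate 1 (0.0541), 2 (0.0688) or 3 (0.0644). Gstm3 was under 2-fold without gPS replicate 3 (0.99) or 5 (0.92), and Gsta3 without ESC replicate 2 (-0.98). With the mean of its probe sets Gsta3 was at -0.79, and without probe sets of shared probes Gstm3 was at 0.92. With only the 2 groups fitted, the adjusted p of Gstk1 was 0.145 and that of Gstm3 0.0985.

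**Figure D4:**
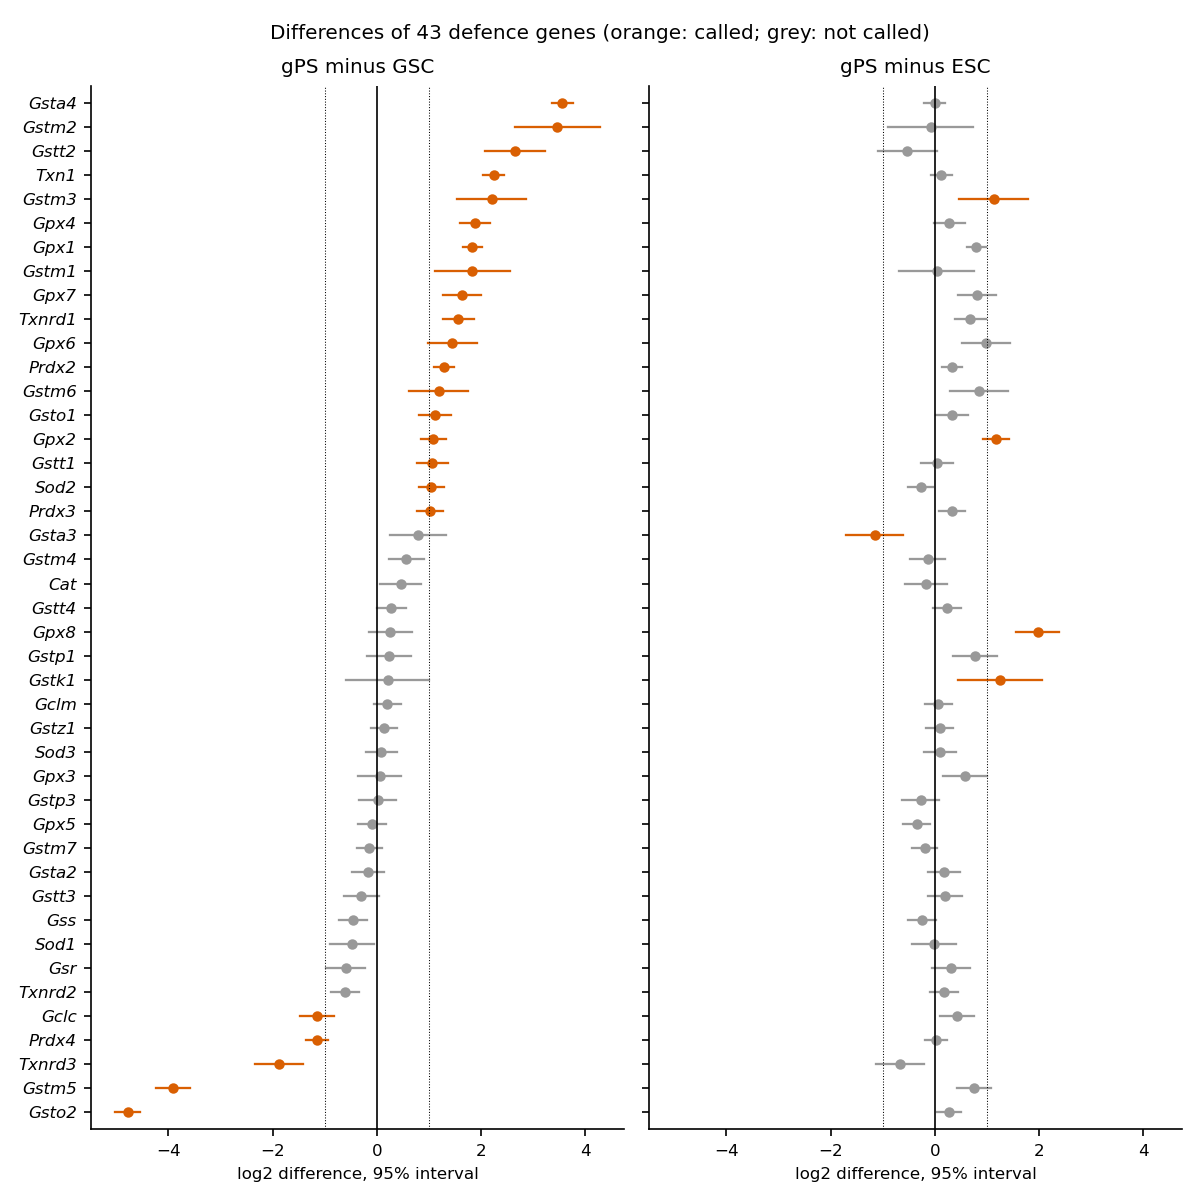
Log2 difference of each of the 43 genes with its 95% interval for gPS minus GSC (left) and gPS minus ESC (right), in the order of the left panel, with called genes in orange and 2-fold marked by dotted lines. The gPS arrays enter both panels, where 23 genes are called on the left and 5 on the right.

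Several genes, picked here after their values were seen, spread widely among the gPS arrays. Gstk1 measured 6.28 and 6.09 in gPS replicates 1 and 2 and 8.32, 8.34 and 8.15 in replicates 3, 4 and 5, against 6.24, 6.13 and 6.18 in ESC and 7.19, 7.27 and 7.23 in GSC. The first 2 gPS arrays lay at the ESC level and the other 3 above every array of every other group. Gstp1 was 10.70 and 10.59 in replicates 1 and 2 and 11.46, 11.62 and 11.81 in the others, and Txnrd3 was 6.65 and 6.19 against 7.59, 7.42 and 7.31. Gstm1, Gstm2, Gstm3, Gstm6 and Gstt2 were each lowest in gPS replicate 1. The labels describe all 5 gPS arrays alike.

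**Figure D5:**
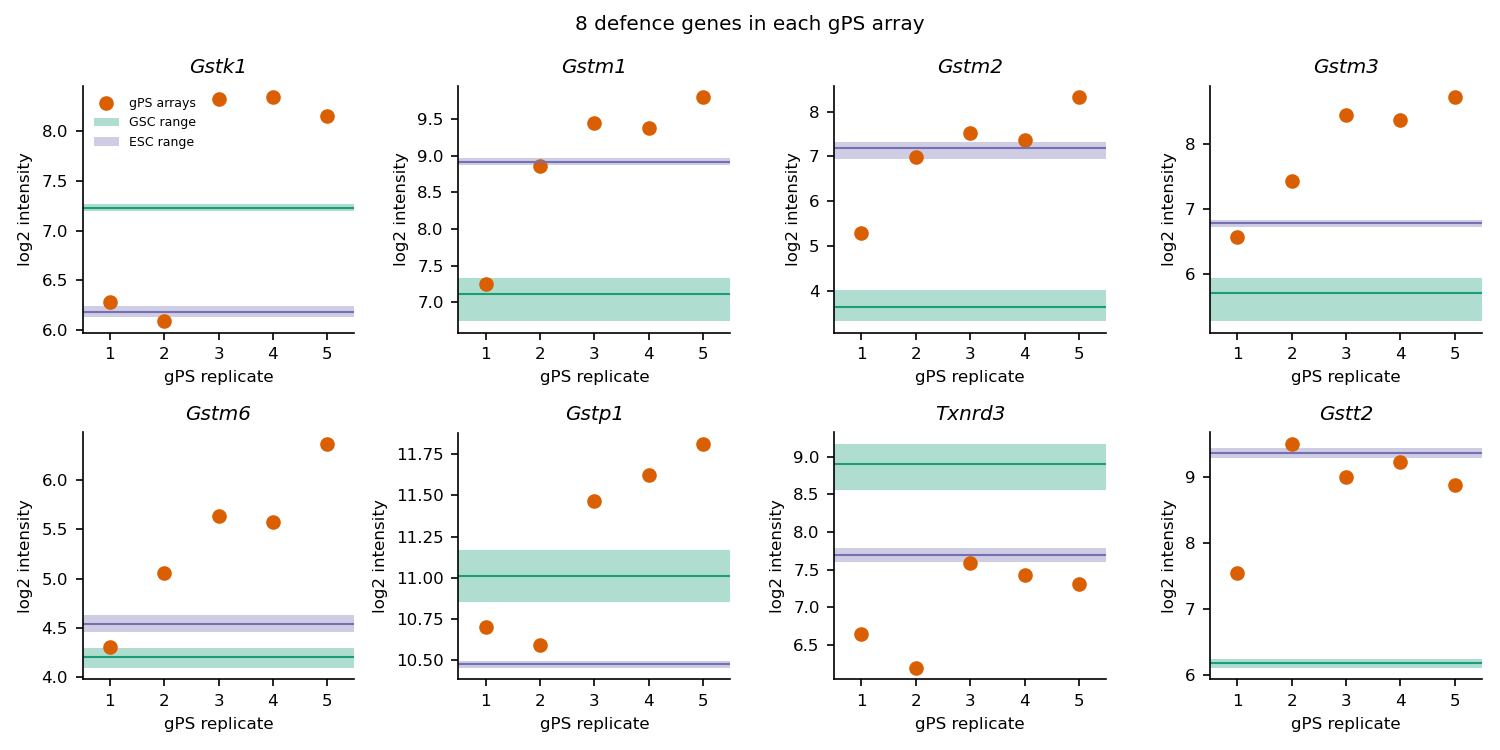
Log2 intensity of 8 defence genes in each of the 5 gPS arrays (points, by replicate number, which has no order), with the range and mean of the 3 GSC arrays (green band and line) and of the 3 ESC arrays (purple band and line). Gstk1 and Gstp1 are lower in gPS replicates 1 and 2 than in the other 3, and the 5 mu and theta class genes are lowest in replicate 1.

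Against ESC, GSC had 7 genes higher and 11 lower, or 41.9% of the 43, where 23.3% of all genes were called. Among genes above 6 the shares were 52.9% and 35.1%. The ESC and GSC arrays also enter the comparisons above, so the values are given side by side and not as separate support. Gsto2 was 5.06 ± 0.12, Gstm5 4.66 ± 0.17 and Gpx8 1.72 ± 0.22 (SE) higher in GSC, with Txnrd3 at 1.20, Prdx4 at 1.17 and Gstk1 at 1.05. Lower in GSC were Gsta4 and Gstm2, each by 3.55, Gstt2 by 3.18, Txn1 by 2.12, Gsta3 by 1.94, Gstm1 by 1.79 and Gpx4 by 1.60 on the log2 scale. Gstk1 passed narrowly (adjusted p = 0.0497, limma) and did not pass when any GSC or ESC array was left out (0.0854 to 0.102). With the mean of its probe sets, Prdx4 was 0.78 higher. Sod3, Gstz1, Gstt4 and Gstm7 differed by 0.05 or less after rounding.

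gPS and ESC_like cells, both pluripotent cells of testis origin, differed in 7 of the 43 genes, 4 higher and 3 lower in gPS cells (16.3%, where 4.85% of all genes were called, and 20.6% against 7.3% among genes above 6). Gstt2 was 1.64 ± 0.27, Gstm3 1.54 ± 0.32, Gstm2 1.19 ± 0.39 and Gpx6 1.05 ± 0.22 (SE) higher, and Gsta3 fell by 1.97 ± 0.26, Gpx8 by 1.29 ± 0.20 and Gstm5 by 1.01 ± 0.16 (SE) on the log2 scale. The Gstm2 arrays overlapped, and its adjusted p of 0.0267 (limma) rose to between 0.0517 and 0.0741 without gPS replicate 3, 4 or 5 or any ESC_like array. Gpx6 was under 2-fold without gPS replicate 3 (0.92) or 5 (0.96), and Gstm5 without gPS replicate 1 (-0.93) or 2 (-0.90) or ESC_like replicate 2 (-0.93). ESC_like arrays had the higher fibroblast marker mean, 8.26 to 8.59 against 6.57 to 8.18, and its part in the lower Gpx8 and Gstm5 of gPS cells was not tested.

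ESC_like cells differed from ESC in 5 of the 43 genes, 3 higher and 2 lower (11.6%, where 7.21% of all genes were called, and 14.7% against 10.8% among genes above 6). Gpx8 was 3.26 ± 0.22, Gstm5 1.76 ± 0.17 and Gsto1 1.28 ± 0.16 (SE) higher. Gstt2 fell by 2.17 ± 0.30 and Gstm2 by 1.27 ± 0.44 (SE) on the log2 scale. The Gstm2 call was lost whichever ESC or ESC_like array was left out (adjusted p = 0.0543 to 0.0885, limma). The fibroblast marker mean was 8.26 to 8.59 in ESC_like and 4.48 to 4.70 in ESC arrays, and its part in these differences was not tested.

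In NSC 4 genes were higher and 9 lower than in ESC (30.2%, where 21.4% of all genes were called). Among genes above 6 the shares were close, at 35.3% and 32.2%. Gpx8 was 4.25 ± 0.22 and Gstm5 2.75 ± 0.17 (SE) higher, with Gstm1 at 1.13 and Prdx4 at 1.01. Gstt2 fell by 5.66, Gsta4 by 4.04, Gstm2 by 3.44, Gsta3 by 2.80, Gpx3 by 1.73, Gstm4 by 1.60, Gpx4 by 1.49 and Sod2 by 1.40 on the log2 scale. Gstm4 was dim, at 4.30 in NSC and 5.90 in ESC, so the size of its fall is uncertain. Gstm1 was not called without NSC replicate 1 (adjusted p = 0.0513, limma) or ESC replicate 3 (0.051), and Prdx4 was just under 2-fold without NSC replicate 3 (0.99) or ESC replicate 3 (0.995). With the mean of their probe sets Gstm1 was at 0.71 and Prdx4 at 0.43.

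In MEF 9 genes were higher and 6 lower than in ESC (34.9%, where 23.4% of all genes were called, and 44.1% against 35.4% among genes above 6). Gpx8 was 6.50 ± 0.22, Gpx7 2.73 ± 0.19, Gstm5 2.70 ± 0.17, Gsto2 2.45 ± 0.12 and Gsto1 2.06 ± 0.16 (SE) higher, followed by Gpx3 at 1.31, Gss at 1.29 and Prdx3 at 1.11. Gstt2 fell by 4.97, Gsta3 by 2.41, Sod2 by 1.75, Gsta4 by 1.31 and Sod1 by 1.06 on the log2 scale, and Gsr fell as given above.

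Between the somatic groups, NSC had 3 genes higher and 11 lower than MEF (32.6%, where 17.0% of all genes were called, and 35.3% against 24.9% among genes above 6). Gstm1 was 2.13 ± 0.39, Prdx2 1.20 ± 0.10 and Gsr 1.16 ± 0.20 (SE) higher in NSC. Gpx7 fell by 4.09, Gstm2 by 3.77, Gpx3 by 3.04, Gsta4 by 2.73, Gsto2 by 2.47, Gpx8 by 2.25, Gsto1 by 2.19 and Gpx1 by 1.48 on the log2 scale. Gsr was 0.99 without NSC replicate 2 and then under 2-fold.

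The known route of control was looked at in the promoters. The core of the antioxidant response element, TGACNNNGC on either strand, occurred in the 250 bases before the start of 6 of the 38 genes with a RefSeq promoter (15.8%) and of 3112 of 27025 mouse genes (11.5%). The matches are shown because these are the letters through which Nrf2 is known to act, with the 9 bases of the match in capitals and 10 bases on either side, 5′ to 3′ on the gene's strand (GRCm38.p6).
Gclm, chr3:122245413-122245441, plus strand: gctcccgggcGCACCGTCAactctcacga
Gsta3, chr1:21240454-21240482, plus strand: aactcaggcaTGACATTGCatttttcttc
Gstm5, chr3:107895802-107895830, plus strand: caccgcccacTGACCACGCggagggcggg
Gstm7, chr3:107931725-107931753, minus strand: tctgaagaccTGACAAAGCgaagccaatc
Sod1, chr16:90220696-90220724, plus strand: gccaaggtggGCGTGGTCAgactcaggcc
Txnrd1, chr10:82859104-82859132, plus strand: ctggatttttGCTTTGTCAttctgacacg
A match describes the letters only. The 6 genes did not share 1 pattern: from GSC to gPS cells Txnrd1 rose, Gstm5 fell, and Gclm, Gsta3, Gstm7 and Sod1 were not called.

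The enzymes that use glutathione and thioredoxin depend on NADPH, and Nrf2 controls many of its sources. Of 21 measured genes of the Nrf2 axis and NADPH supply, 7 rose and 1 fell from GSC to gPS cells and 13 were not called (38.1% called, where 20.0% of all genes were), with a median difference of 0.42. Idh2, the mitochondrial NADPH-producing isocitrate dehydrogenase, rose from 5.67 to 9.68 (4.01 ± 0.23, SE; adjusted p = 8e-12, limma), Nnt, the mitochondrial transhydrogenase, from 5.96 to 8.76, and the quinone reductase gene Nqo1, a classical Nrf2 target, from 5.31 to 7.70. Hmox2, the constitutive heme oxygenase, fell from 10.65 to 9.06. Against ESC, gPS cells had 0 of the 21 called in either direction by limma (7 higher and 6 lower at an unadjusted p under 0.05), where 4.49% of all genes were called. GSC had 1 higher and 9 lower than ESC (47.6%, where 23.3% of all genes were called), with Idh2, Nnt and Nqo1 lower by 4.12, 3.34 and 2.73. Over all genes with a mean above 6 in some group, the shares were higher. They were 30.3% for gPS minus GSC and 35.1% for GSC minus ESC. Shares among genes above 6 were not counted for the 5 pathway lists.

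Among other genes of glutathione metabolism and transport, 5 of 22 measured rose and 2 fell from GSC to gPS cells. This was 31.8% called, where 20.0% of all genes and 30.3% of all genes above 6 were. Cth, which makes the cysteine for glutathione from cystathionine, rose from 5.04 to 9.78 (4.74 ± 0.19, SE; adjusted p = 2e-14, limma), Cbs, the enzyme before it, from 5.28 to 7.76, and Chac1, which degrades glutathione, from 5.11 to 7.56. Oplah, which opens 5-oxoproline, fell from 6.93 to 5.30 and Ggt7 from 6.97 to 5.49. Cth was also lower by 4.68 in NSC than in ESC, and Mgst1, a microsomal transferase, was higher by 5.08 in NSC and 3.29 in MEF than in ESC.

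Of 24 thioredoxin and glutaredoxin partners, 3 rose and 2 fell from GSC to gPS cells, a share of 20.8% that is near the 20.0% of all genes. Txnip, which binds and inhibits thioredoxin, fell from 12.04 to 6.22 (-5.83 ± 0.22, SE; adjusted p = 6.8e-15, limma), while Txn1 itself rose. Sesn1 fell from 8.62 to 7.43, and Glrx2, the mitochondrial glutaredoxin, rose from 7.03 to 8.98, Msra, a methionine sulfoxide reductase, from 4.72 to 6.21 and Sesn2 from 7.16 to 8.33. Txnip was 9.17 in ESC_like and 5.23 in ESC, and fell by 2.95 from ESC_like to gPS cells.

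Glutathione peroxidases and thioredoxin reductases include selenoproteins, and of 21 other genes for selenoproteins and their synthesis 3 rose and 2 fell from GSC to gPS cells, or 23.8%, near the 20.0% of all genes. Sephs1 rose from 7.26 to 9.16, Selenot from 8.59 to 10.20, and Sephs2, which makes the selenium donor, from 9.72 to 11.10. Selenop, the selenium carrier, fell from 11.24 to 8.09 (-3.15 ± 0.14, SE; adjusted p = 1.1e-13, limma) and Selenok from 11.17 to 9.48. Selenop was higher by 5.47 in NSC than in ESC.

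Of 16 measured genes for enzymes that release peroxide or superoxide, 3 rose and 0 fell by limma from GSC to gPS cells (5 and 4 at an unadjusted p under 0.05), or 18.8%, near the 20.0% of all genes. They were Maoa, a mitochondrial monoamine oxidase, from 7.57 to 9.50, Cyba, a subunit of NADPH oxidases, from 7.14 to 8.85, and Loxl1, a lysyl oxidase, from 5.08 to 6.10. Lox, the lysyl oxidase of collagen crosslinking, was 13.27 in MEF, 10.12 in ESC_like, 7.74 in gPS, 7.60 in GSC, 5.13 in ESC and 5.07 in NSC. The fibroblast marker mean was likewise highest in MEF and next highest in ESC_like arrays, and its part was not tested.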

How the data were processed

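Per the labels' protocols, 1 biotin-labelled total RNA sample was read on each of the 20 Affymetrix arrays. The authors deposited RMA values, which are log2 intensities for each probe set; RMA is named, with no version, in the submitters' processing notes. Whether all 20 arrays were processed together, and the genome build behind the probe annotation, are not given in the sources used here. RMA equalises the arrays' distributions, so a shift of most genes in 1 direction would not be seen. Values were used as deposited. Of 45101 probe sets, 34945 had 1 gene symbol, 932 had several and 9160 had none. The probe set with the highest mean stood for each of 18193 genes. Of the 43 genes described, 20 had several probe sets, 76 in all. A suffix for shared probes (_a, _s or _x) marked the probe sets of 15, where the sharing may be between transcripts of the same gene (_a) or of other genes.

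For 8 comparisons, 1 model of 6 group means with no covariate was fitted over the 20 arrays (limma 3.58.1, R 4.3.3), and p-values were adjusted over all genes of a comparison. A call needed an adjusted p under 0.05 and a difference of at least 2-fold. SE and 95% intervals are of the fitted difference. The 43 genes, the 5 pathway lists and the marker lists were chosen with earlier results of these data known. Values in every array are given for the 14 genes with the widest range of group means and for 11 central enzymes. In each comparison up to 8 called genes in each direction and up to 4 with the smallest differences could be named, and from each pathway list up to 3 called genes in each direction. Some further genes were named for completeness of their family after their values were seen. Promoters were taken from RefSeq (GRCm38.p6). The same code was tested on simulated data. Alternatives were other scalings, other probe set rules, other thresholds and fits, a block for the replicate number, and the omission of every array in turn. Leaving out gPS replicates 1 and 2 together was added after seeing the data. Python 3.11.15 with pandas 2.3.3, numpy 2.4.6 and, for plots, matplotlib 3.10.9 did the rest. The labels name no separate cultures for the replicates, so the p-values reflect array-to-array spread alone, which may be technical, and the small number of arrays limits the precision.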

Additional observations from a re-analysis of the deposited data

Results flagged for a closer look

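In the gPS group, the only group with enough arrays for this check, 2 of the 43 genes had a single array far from the other 4. Gstz1 was 6.59 in gPS replicate 1 against 6.90 to 7.02 in the others, and Txnrd1 was 11.34 in gPS replicate 5 against 10.73 to 10.89. Chance gives such an array in about 1 of 20 groups, and 7.0% of all 18193 genes had one.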

How the results depend on the processing

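Of 82 called differences of named genes, 68 were called under every alternative that kept the 2-fold threshold and 14 were lost under at least 1. The 82 hold at most 8 called genes in each direction of a comparison, those with the largest differences. Smaller called differences were not checked gene by gene. In gPS minus GSC these include Prdx3 (1.02), Sod2 (1.04) and Gstt1 (1.07), which lay just above 2-fold. Under these alternatives 0 of 32 named differences that were not called became called. Those 32 were the smallest differences of each comparison, far from 2-fold. The count therefore does not cover genes just under the threshold. For gPS minus ESC the count of called genes was 5, and it was 3 with only the 2 groups fitted, 3 with the replicate number as a block, 13 at 1.5-fold, 9 without gPS replicates 1 and 2 together (chosen after seeing the data), and 3 to 6 when single arrays were left out. For gPS minus ESC_like it went from 7 to 14 at 1.5-fold and to 11 without those 2 gPS arrays. At 1.5-fold it was 10 for ESC_like minus ESC, 25 for NSC minus ESC and 23 for MEF minus ESC. Leaving out single arrays gave 20 to 24 for gPS minus GSC, 16 to 18 for GSC minus ESC, 5 to 8 for gPS minus ESC_like, 4 to 5 for ESC_like minus ESC, 11 to 15 for NSC minus ESC, 15 to 17 for MEF minus ESC and 13 to 14 for NSC minus MEF. The other alternatives at 2-fold gave 17 to 23 for gPS minus GSC and 17 to 18 for GSC minus ESC. They gave 13 to 17 for MEF minus ESC, and 11 to 15 for both NSC minus ESC and NSC minus MEF. The replicate numbers did not pair the arrays: correlations of the deviations of same-numbered arrays ran from -0.17 to 0.27, and in NSC minus MEF, where all 3 were above 0, the highest was 0.046. The causes of the changed counts were not tested. Signal over background limits Gpx5, Gsta2, Gstm6, Gstp3, Gstt3, Gstt4 and Sod3, whose highest group means were 4.20 to 5.49. Gstm7 and Gstm4 were also dim on the probe sets used, with highest group means of 5.61 and 5.90.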
